A study of Canis lupus familiaris with 6 samples.

Results

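Interferon regulatory factors (IRFs) are transcription factors that share a DNA-binding domain and recognise related sites in the promoters of interferon genes and of interferon-stimulated genes. IRF3 and IRF7 are phosphorylated after viral RNA or DNA is sensed and switch on interferon genes, whereas IRF9 joins STAT2 in ISGF3, the complex that relays type I and type III interferon signals to the nucleus. IRF1 drives antiviral and antigen presentation genes and IRF2 competes with it for the same sites, IRF5 acts below Toll-like receptors, and IRF4 and IRF8 are best known in lymphoid and myeloid cells.

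IRF1, IRF2, IRF3, IRF4, IRF5, IRF7, IRF8 and IRF9 were examined in β-cat ΔN/RasV12 cells, a derivative of the canine kidney epithelial line MDCK. Every cell carried mCherry-β-catenin Δ131 (a truncated, stabilised β-catenin), and the profiled cells also carried pTR GFP-RasV12, which is switched on by tetracycline. In the 3 single culture samples these cells were grown alone on collagen, and in the 3 mix culture samples they were co-cultured with 10 MDCK mCherry-β-catenin Δ131 cells for each RasV12 cell. All 6 cultures received tetracycline for 24 h. RNA of the sorted GFP-positive cells was hybridised to a canine 1-colour array, so the comparison asks what the presence of the surrounding cells changes in the RasV12 cells. The cells are engineered sublines of 1 cell line, the labels do not say whether the 3 samples of a group came from separate cultures, and p-values therefore measure only the spread between these samples, which may be technical.

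The 8 genes, of 13841 symbols on the array, were represented by 13 of 43603 probes. The gene name column of the design gave 10 probes of 7 genes. IRF7 carried only a transcript identifier in that column and was found through the description column, as were a further probe of IRF2 and a further probe of IRF9. Testing required a signal well above background on all arrays of 1 group or of both. By that rule 10 probes of 6 genes were tested, each of them above background on all 6 arrays, and the probes of IRF4 and IRF8 and the third IRF9 probe were not above background on any array. The lowest signal called well above background was 4.19 to 4.48 intensity units on the 6 arrays.

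Each probe is a DNA 60-mer. The sequences shown are those of the probes on which the account turns, from the sequence column of the design, with positions on CanFam3.1. IRF7 is shown because it carries the called change, IRF3 and IRF1 because they are the family members that act before and beside it, and the pair of IRF9 probes because they overlap but gave different results. In the IRF9 probes the capitals mark the 17 bases they share, and of the second IRF9 probe only the first 30 bases are shown.
IRF7, chr18:25709050-25709109, minus strand: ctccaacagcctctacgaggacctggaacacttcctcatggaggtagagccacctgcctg
IRF3, chr1:106878311-106878850, plus strand: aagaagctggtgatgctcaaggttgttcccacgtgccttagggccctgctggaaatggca
IRF1, chr11:20776197-20776710, minus strand: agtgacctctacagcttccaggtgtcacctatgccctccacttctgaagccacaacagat
IRF9 probe a, chr8:4156815-4156874, plus strand: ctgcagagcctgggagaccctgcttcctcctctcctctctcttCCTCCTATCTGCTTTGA
IRF9 probe b, chr8:4156858-4156917, plus strand: CCTCCTATCTGCTTTGAaagagactcattc
The IRF3 and IRF1 probes span 540 and 514 bases of the genome, more than their own length, so each crosses an interruption between exons. IRF9 probe a ends on TGA, and probe b begins inside it and runs past it. Pyrimidines made up 73.3% of probe a and 65% of probe b.

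IRF7 was the member that rose in the mix culture. Its background-subtracted signal was 1334, 1542 and 1186 intensity units in single culture replicates 1, 2 and 3. In mix culture replicates 1, 2 and 3 it was 6600.0, 5122 and 4771. The lowest mix culture value lay well above the highest single culture value, and replicate 1 of the mix culture was the highest of the 6. On the normalised log2 scale, on which each array's 75th percentile is 0, IRF7 stood at 2.90 ± 0.27 (SD, n = 3) in single culture and at 4.85 ± 0.04 (SD, n = 3) in mix culture. The log2 fold change was 1.95 (SE 0.18, 95% interval 1.52 to 2.38), which is 3.86-fold (2.87 to 5.19), with a limma adjusted p of 0.00484 over all tested probes. IRF7, an interferon-inducible gene that amplifies interferon-α production, is measured here by 1 probe alone.

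IRF7 was the single member called, 1 of 10 probes tested, against 0.815% of all 26621 tested probes called higher and 0.883% called in either direction (limma, adjusted p under 0.05). Replicate 1 of each group was hybridised on one slide and scanned with another software version and pixel size than the other 4 arrays, on a second slide. The IRF7 change was 2.13 on the log2 scale on the first slide and 1.86 on the second, and with the slide as a block its adjusted p in limma was 0.000199. The difference between slides in this change was -0.27 on the log2 scale, with a limma adjusted p of 0.814. The call was lost in the methods' t-test, where the adjusted p was 0.105. Across all 18 alternatives, some of which cannot alter the change itself, it lay between 1.85 and 2.13. The limma calls were kept when any 1 array was left out, with adjusted p between 0.00906 and 0.045.

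**Figure D1:**
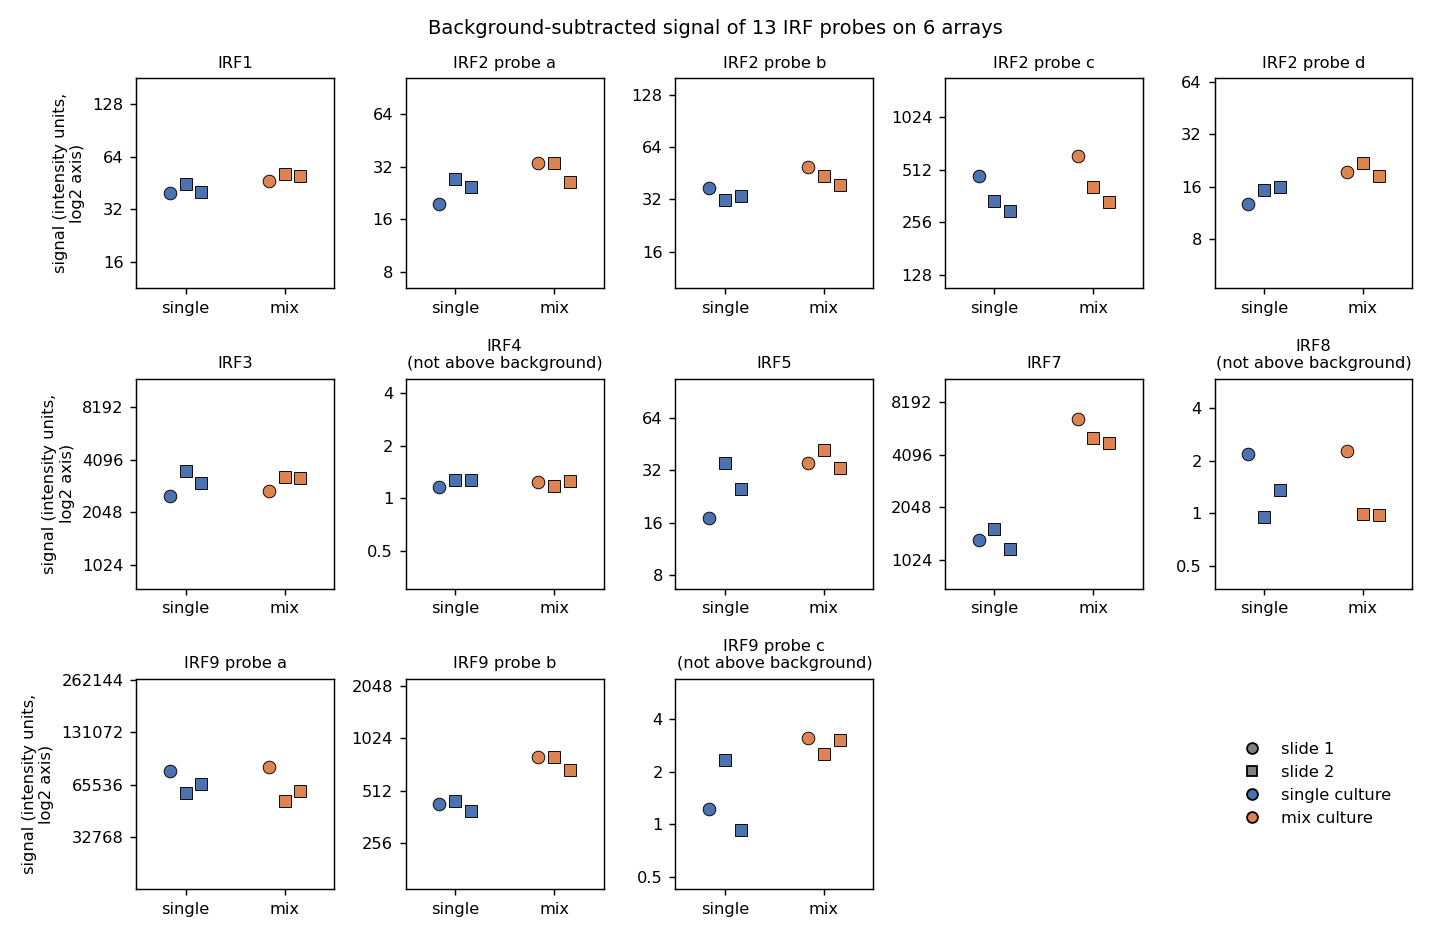
Background-subtracted signal (intensity units, log2 axis spanning the same ratio in every panel) of the 13 IRF probes, 1 point per array, blue for single culture and orange for mix culture, circles for the first slide and squares for the second. IRF7 rises from 1186 to 1542 in single culture to 4771 to 6600.0 in mix culture. On this unscaled signal the groups are also separate for IRF9 probe b, IRF1, IRF2 probes b and d and the third IRF9 probe, which is not above background. The share of all probes separate on this unscaled signal was not computed, so no result is read from it. After scaling, 3 of the 10 tested IRF probes were separate with the mix culture higher, beside 7.85% of all tested probes. The IRF3 and IRF9 probe a points lie side by side.

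IRF9, the DNA-binding subunit of ISGF3, gave different values at its probes. Probe b read 432, 446 and 391 units in single culture replicates 1 to 3 and 798, 799.9 and 675 units in mix culture replicates 1 to 3. The groups did not overlap. The log2 fold change was 0.77 (SE 0.18, 95% interval 0.35 to 1.19), or 1.71-fold, and it did not pass over all probes, with a limma adjusted p of 0.159. With the slide as a block the adjusted p in limma was 0.00626, in a fit that called 3.98% of all probes higher. It was 0.0111 with the replicate number as a block, in a fit that called 3.23% higher, and 0.0237 in limma on the second slide alone, where 2.41% were called higher. The change was 0.71 on the first slide and 0.81 on the second.

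IRF9 probe a did not move with probe b. It read 78107, 58403 and 65664 units in single culture and 82907, 52706 and 60015 units in mix culture, none of them flagged as saturated. The groups overlapped, and both slide 1 arrays were above the other 4. The log2 fold change was -0.13 (SE 0.16, 95% interval -0.51 to 0.25, limma adjusted p 0.936). Its interval lies below that of probe b, and the reason for the discrepancy was not tested. The third IRF9 probe read 1.22, 2.34 and 0.931 units in single culture and 3.11, 2.53 and 3.06 in mix culture, and stayed not well above background on every array. The mean log2 fold change over the 2 tested IRF9 probes was 0.32. A rise of IRF9 thus rests on probe b alone and was not seen at probe a, so the change of the gene is not settled here.

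IRF3 and IRF5, the other members that act after pathogen sensing, were not called. IRF3, which is present before stimulation and is activated by phosphorylation, read 2536, 3507 and 2991 units in single culture and 2700.3, 3240.3 and 3201 in mix culture. The replicates of the groups were interleaved, with replicate 1 lowest in both. The log2 fold change was -0.04 (SE 0.28, 95% interval -0.70 to 0.62, limma adjusted p 0.988), and with the slide as a block the interval narrowed to -0.31 to 0.23. The sign of the IRF3 value turned in 5 of the 18 alternatives. This array measures IRF3 RNA and not its phosphorylation.

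IRF5, which signals below Toll-like receptors, was dim, at 17.1, 35.5 and 24.9 units in single culture and 35.2, 42.0 and 33.0 in mix culture. Single culture replicate 1 was the lowest array, and single culture replicate 2 lay within the mix culture range. The log2 fold change was 0.50 (SE 0.35, 95% interval -0.33 to 1.33, limma adjusted p 0.816). It was 0.86 on the first slide and 0.32 on the second. It moved to 0.14 when single culture replicate 1 was left out and to 0.82 when single culture replicate 2 was.

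IRF1 and IRF2 bind the same sites with largely opposed effects, and neither was called. IRF1 read 39.5, 44.4 and 40.2 units in single culture and 46.5, 51.1 and 49.2 in mix culture. The signals as deposited did not overlap between groups, but after each array was scaled to its 75th percentile they did. The log2 fold change was 0.18 (SE 0.22, 95% interval -0.34 to 0.70, limma adjusted p 0.935), with 0.06 on the first slide and 0.24 on the second.

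IRF2 was read by 4 probes on chromosome 16, all with a small positive value. Probe a read 19.6, 27.3 and 24.5 units in single culture and 33.5, 33.8 and 26.1 in mix culture. Probe b read 37.2, 31.8 and 33.6 units in single culture and 49.3, 43.5 and 38.8 in mix culture. Probe b was the IRF2 probe whose groups did not overlap after scaling. Probe c read 472, 340 and 298 units against 614, 408 and 333. Probe d, named through its description, read 12.7, 15.3 and 15.8 units against 19.5, 22.0 and 18.3. The log2 fold changes were 0.33 (SE 0.24), 0.29 (SE 0.15), 0.20 (SE 0.18) and 0.39 (SE 0.23) in the order a to d, with a mean of 0.30 over the 4 probes and limma adjusted p between 0.688 and 0.874. In the authors' table, centred within slides, probes b and d passed, with limma adjusted p of 0.034 and 0.015. That fit took no account of the centring, so its p-values are too low, and it called 1948 of 26621 probes higher. With the slide as a block the limma adjusted p was 0.118 for probe b and 0.0583 for probe d, and neither passed. These probes target 1 gene and are not independent of each other.

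IRF4 and IRF8 were not detectable at the sensitivity of the array. The IRF4 probe on chromosome 35 read 1.16 to 1.26 units over the 6 arrays, and the IRF8 probe on chromosome 5 read 0.957 to 2.28 units. No array of either group called them well above background, so no change was tested. Markers of blood cells, in which both genes are best known, had 10 of 21 probes above background on no array, and PTPRC, CD4, MS4A1, ITGAM and SPI1 were not tested for that reason.

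Over the family, 8 of the 10 tested probes had a positive log2 fold change, with a median of 0.31, beside 42% positive and a median of -0.05 over all tested probes. IRF2 supplied 4 of these probes, which are not independent of each other. By gene, the mean over tested probes was 0.18 for IRF1, 0.30 for IRF2 and -0.04 for IRF3. It was 0.50 for IRF5, 1.95 for IRF7 and 0.32 for IRF9. After scaling, the groups did not overlap for 3 of the 10, IRF7, IRF9 probe b and IRF2 probe b, each with the mix culture higher. Over all tested probes 7.85% were separated in that direction. No IRF probe was separated with the mix culture lower. The share of all tested probes separated that way was not computed, so nothing is read from this absence.

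**Figure D2:**
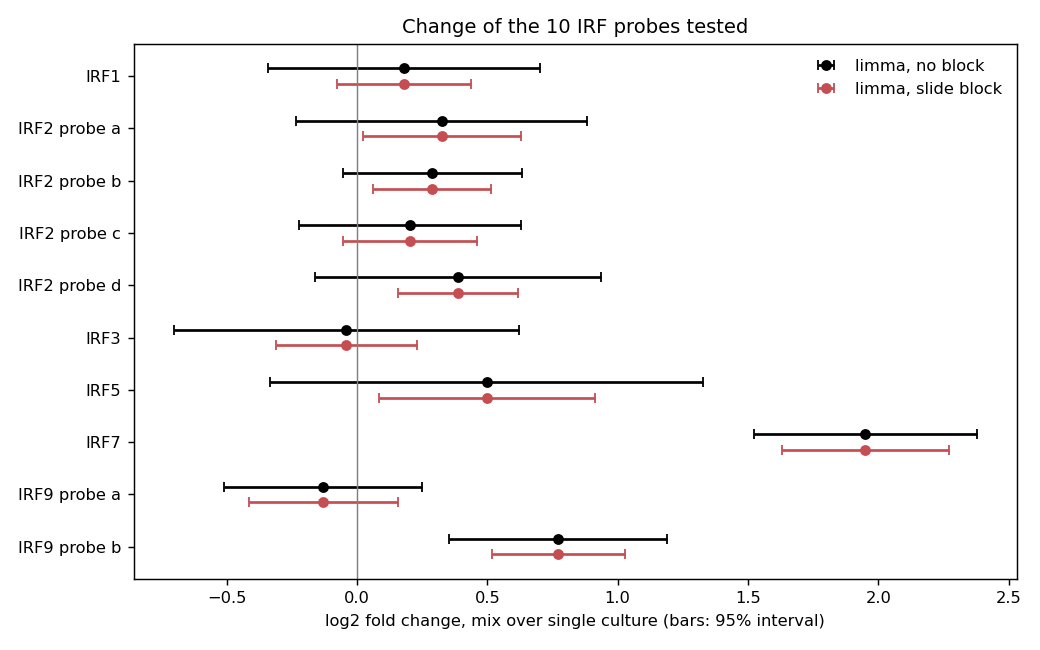
Log2 fold change of mix culture over single culture for the 10 tested IRF probes, with 95% intervals from limma without a block (black) and with the slide as a block (red). IRF7 at 1.95 stands to the right of all other intervals, IRF9 probe b lies at 0.77 and probe a at -0.13, and the remaining intervals without a block include 0.

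The symbols whose profile was most like that of IRF7 over the 6 arrays were sought among 10223 others by the root mean square difference of log2 values centred on each symbol's own mean. OAS1, which makes the 2′-5′ oligoadenylates that activate RNase L, was nearest at 0.15 log2 units. It was followed by PARP14, an ADP-ribosyltransferase, at 0.18, by USP18, which removes ISG15 and dampens the interferon receptor, at 0.18, by TMEM106A at 0.19 and by DDX58, the RNA sensor RIG-I, at 0.19. The log2 fold changes of OAS1, PARP14, USP18 and DDX58 were 1.77, 1.73, 1.61 and 2.22, each called in limma with adjusted p between 0.00771 and 0.0175. Each of these 4 calls was lost when single culture replicate 3, mix culture replicate 2 or mix culture replicate 3 was left out, with limma adjusted p of up to 0.119. TMEM106A did not exceed background on the single culture arrays and was tested because of its mix culture signal alone, so its place in this order rests on values below background and only a bound can be given, at least 3.89-fold higher in the mix culture. These 5 symbols were ranked over the same arrays and share their groups with IRF7, so the likeness describes the profiles and is no separate test.

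**Figure D3:**
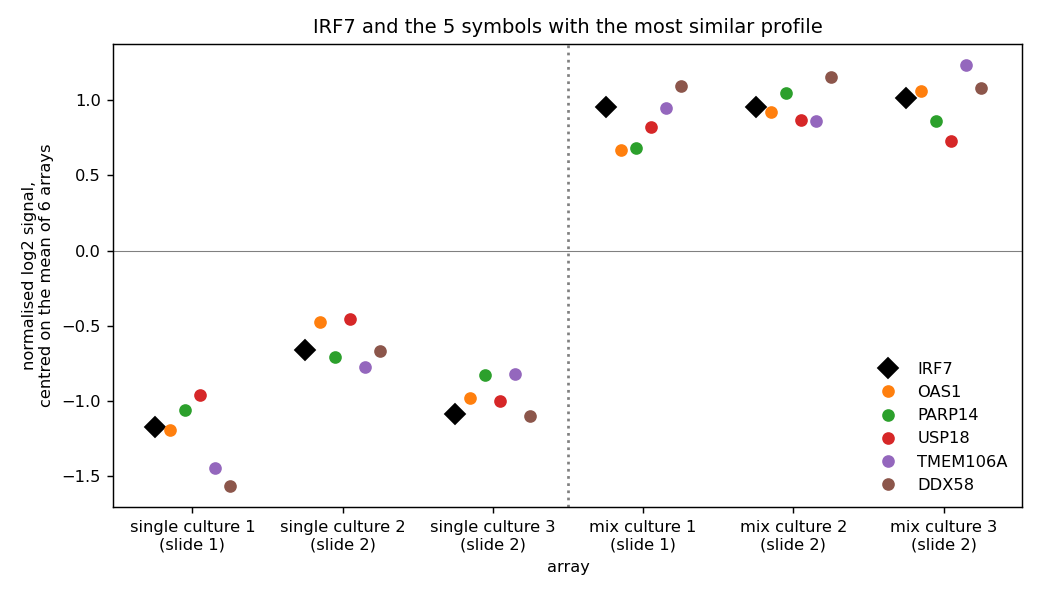
Normalised log2 signal of IRF7 (black diamonds) and of OAS1, PARP14, USP18, TMEM106A and DDX58 (coloured circles), each centred on its mean over the 6 arrays, which are given along the x axis with their slide. The single culture points of TMEM106A are below background. All 6 symbols lie below 0 on the 3 single culture arrays and above 0 on the 3 mix culture arrays, and single culture replicate 2 is the highest of its group for IRF7.

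Upstream of the IRFs, the kinases and adaptors that lead to their phosphorylation showed no call at the RNA level. The array does not measure the activity of these proteins. The RNA sensors DDX58 and TLR3 are not in this list but among the ISGF3 and IRF1 targets, where limma called both higher, with the limits given for those calls. Of 17 symbols listed as IRF activators, in which TMEM173 and STING1 name the same gene, 13 were tested. Of those, 0 were called by limma in either direction. The median log2 fold change was 0.07, beside -0.05 over the 10224 tested symbols, of which 0.949% were called. The largest values were those of MYD88, the adaptor of most Toll-like receptors, at 0.56 (SE 0.18, limma adjusted p 0.402), and of TBK1, the kinase of IRF3, at 0.49 (SE 0.16, limma adjusted p 0.373). With the slide as a block both had an adjusted p below the threshold in limma, 0.0286 for MYD88 and 0.0412 for TBK1, but not with the replicate number as a block, where it was 0.055 and 0.0782. The median of this list lay between -0.01 and 0.13 when 1 array was left out, negative without single culture replicate 2 or mix culture replicate 3.

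The interferons themselves were poorly covered. Of 12 listed, 4 were matched to a probe and 2 were tested. IFNK, an interferon of epithelial keratinocytes, had a value of 0.83 on the log2 fold change scale (SE 0.20, limma adjusted p 0.192, and 0.0197 with the slide as a block). IFNA7 had -0.19 (SE 0.21, limma adjusted p 0.923). IFNB1, the classical target of IRF3, and IFNG were not well above background in a whole group and were not tested.

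Between the receptor and IRF9, 5 of 11 listed genes were tested and 0 were called by limma in either direction, with a median of -0.02. Among all tested symbols 0.949% were called, with a median of -0.05. STAT2, the ISGF3 subunit that binds IRF9, read 51.9, 55.9 and 57.0 units in single culture and 92.3, 93.7 and 87.3 in mix culture. Its groups did not overlap, and the log2 value of mix over single culture was 0.66 (SE 0.20, limma adjusted p 0.323, and 0.00695 with the slide as a block). IFNLR1, the type III interferon receptor chain, had -0.57 (SE 0.17, limma adjusted p 0.31, 0.0427 with the slide as a block and 0.0762 with the replicate number as a block). IFNAR1, IFNAR2 and TYK2 were not analysed here.

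Most genes listed as ISGF3 targets were called higher in the mix culture, as IRF7 was. The list was drawn up with earlier results of these data known, so its count is a description. Of its 32 genes 26 were tested, 21 were called higher by limma and 0 lower, and the median log2 fold change was 2.18. Over all 10224 tested symbols 0.949% were called in either direction, and the median was -0.05. Restricted to probes above background on all 6 arrays, 20 of 25 were called higher. Among these, MX2 stood at 4.68 (SE 0.32), IFIT1 at 3.91 (SE 0.19) and MX1 at 3.17 (SE 0.21). MX1 and MX2 are dynamin-like GTPases, and IFIT1 binds viral RNA. DHX58, the RNA sensor LGP2, was above background on 1 of 3 single culture arrays and passed the filter through the mix culture, so its fitted value of 3.54 (SE 0.56) rests on signals near background and is not ranked with the others. The MX2, IFIT1 and MX1 calls were kept when any 1 array was left out, and that of DHX58 was lost in 4 of the 6 cases, all but those leaving out single culture replicate 1 or 2, with a limma adjusted p of up to 0.208. The 5 members not called were IFIT2, IFI35, EIF2AK2, OASL and CXCL10, named after their values were seen. IFIT2, IFI35 and EIF2AK2 had values of 2.55, 2.15 and 0.95 with limma adjusted p between 0.0559 and 0.0796, OASL had 0.26 (limma adjusted p 0.79), and CXCL10, a chemokine, had -0.18 (SE 0.15, limma adjusted p 0.866). The number called fell to 6 when mix culture replicate 3 was left out, to 8 when single culture replicate 3 was, and to 11 when mix culture replicate 2 was, while the median stayed between 2.07 and 2.35 when any 1 array was left out.

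Of 16 listed IRF1 targets 11 were tested, 4 were called higher by limma and 0 lower, with a median of 1.26. The share called over all tested symbols was 0.949%, and their median was -0.05. The called genes were PSMB8 at 2.39 (SE 0.32, adjusted p 0.0214) and PSMB9 at 1.67 (SE 0.21, adjusted p 0.0164), both subunits of the immunoproteasome, CIITA at 2.34 (SE 0.25, adjusted p 0.00894), the regulator of MHC class II genes, and TLR3 at 1.26 (SE 0.15, adjusted p 0.014), a sensor of double-stranded RNA. IRF1 itself had 0.18, and CIITA was called at 1 of its 2 tested probes. In single culture PSMB8 read 7.91, 14.0 and 8.06 units and CIITA 8.66, 12.8 and 9.48. These signals were above background but dim, so the size of both changes is uncertain. With the slide as a block 9 of the 11 were called higher, in the fit that called 3.98% of all probes higher. None of the 4 calls was kept when single culture replicate 3, mix culture replicate 2 or mix culture replicate 3 was left out, where 0 of the 11 were called. The PSMB8 call was also lost without mix culture replicate 1.

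Of 11 listed regulators of IRF stability and activity 10 were tested and 1 was called by limma, beside 0.949% of all tested symbols. It was USP18 at 1.61 (SE 0.19, limma adjusted p 0.0124). TRIM21, a ubiquitin ligase of several IRFs, had 0.74 (SE 0.15, limma adjusted p 0.104), and 0.00825 with the slide as a block. The median of this list was 0.10, beside -0.05 over all tested symbols. The USP18 call was among the 4 lost as above, with a limma adjusted p of up to 0.086.

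**Figure D4:**
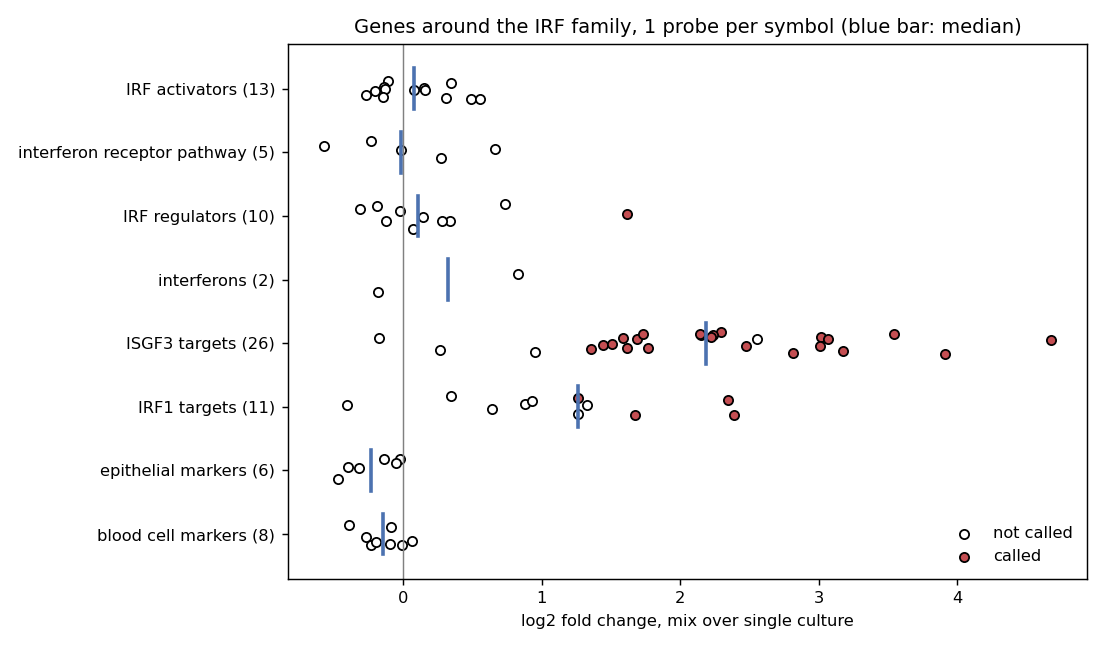
Log2 fold change of mix culture over single culture for the tested genes of 8 lists, 1 probe per symbol, with red points called at an adjusted p under 0.05 in limma and blue bars for list medians. The called genes are 21 of 26 ISGF3 targets, 4 of 11 IRF1 targets and 1 of 10 IRF regulators, while the medians of the IRF activators and of the epithelial and blood cell markers are 0.07, -0.23 and -0.15. Over all tested symbols 0.949% were called and the median was -0.05.

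The identity of the cells was read from marker lists. All 12 probes of 6 epithelial genes were above background on all 6 arrays, with a summed signal of 124760 to 159220 units in single culture and 114100 to 130630 in mix culture, and 0 of the 6 were called. All 6 had a negative value, with a median of -0.23 beside -0.05 over all tested symbols, and the part of this in the IRF values was not tested. CDH1, or E-cadherin, had the lowest value of that list, -0.47 on the log2 scale (limma adjusted p 0.384, and 0.0444 with the slide as a block). The summed signal of the 21 blood cell marker probes was 311 to 461 units in single culture and 299 to 468 in mix culture, and 0 of 8 tested genes were called. The HRAS probe, which might read the RasV12 transgene, had a value of -0.62 on the log2 fold change scale (SE 0.28, limma adjusted p 0.608, and 0.065 with the slide as a block), and its part in the IRF7 and ISGF3 target values was not tested. In RNA from sorted populations, fewer cells with a transcript and less of it per cell cannot be told apart.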

How the data were processed

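The authors hybridised Cy3-labelled total RNA to the Agilent Canine (V2) array and extracted intensity values with Agilent Feature Extraction 11.5.1.1 (replicate 1 of each group) or 12.1.1.1 (the others). The deposited intensity used here is the background-subtracted processed signal. It was averaged over spots of a probe without control and outlier-flagged spots, taken as log2 and reduced by the array's 75th percentile. The deposited log2 table of the authors, whose columns each have a median of 0, served as an alternative. Its scaling is not given in the sources used here. Within each slide it is centred per probe, and its columns for mix culture replicates 2 and 3 matched the scanner values of each other (0.99 and 0.997) and not their own (0.374 and 0.386), so which of the pair carries its label was not tested.

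Mix culture was compared with single culture in limma 3.58.1 under R 4.3.3, with Benjamini-Hochberg adjustment over 26621 probes and a call at 0.05. The script was tested on simulated data. No library depth exists for arrays, and 3 arrays per group limit the precision. Per array, 61.1% to 65.7% of spots exceeded background and 0 were saturated, and 47.2% of tested probes differed between slides. Same-numbered replicates deviated together (correlations 0.801, 0.53 and 0.572), but so did different numbers of the second slide (0.61 and 0.632).

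The alternatives were other normalisations and filters, slide and replicate blocks, the second slide alone, the authors' table, the methods' t-test and leaving out each array. Every IRF probe is named. From each list the called genes were named, at most 4 by size of change, or the 2 largest where none was called, with the 5 symbols nearest to the called IRF. Lists used the brightest tested probe per symbol. Members and lists were chosen with earlier results of these data known.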

Additional observations from a re-analysis of the deposited data

How the results depend on the processing

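The count of IRF probes called, 1 of 10, became 2 with the slide as a block, 2 with the replicate number as a block, 2 with that block and mix culture replicates 2 and 3 exchanged and 2 on the second slide alone, the addition being IRF9 probe b each time. It was 4 in the authors' table, which is centred within slides and added IRF9 probe b and IRF2 probes b and d. The limma fit to that table took no account of the centring, so its p-values are too low. The count was 0 in the methods' t-test, which called 8 of 26621 probes after adjustment and 2590 at an unadjusted p under 0.05. Leaving out any 1 array gave 1 to 1. Of the 67 tested genes in the 6 pathway lists 26 were called, and 40 with the slide as a block, 43 in the authors' table, 1 in the methods' t-test and 6 to 26 when 1 array was left out. The lowest of these were 6 (mix culture replicate 3 left out), 8 (single culture replicate 3) and 11 (mix culture replicate 2). After normexp the list medians were 1.38 for ISGF3 targets and 0.69 for IRF1 targets, against 2.18 and 1.26. Over all probes 235 were called, against 1917 with the slide as a block, 1399 with the replicate block, 1447 with the exchanged pairing, 983 on the second slide alone, 4077 in the authors' table, 134 after normexp, 143 with probes above background on all 6 arrays and 86 to 242 when 1 array was left out. The split between higher and lower calls was 217 to 18 and became 1060 to 857 with the slide as a block. IRF3 turned to 0.00478 after normexp, 0.0342 after quantile normalisation, 0.03 in the authors' table, 0.193 without mix culture replicate 1 and 0.134 when single culture replicate 2 was left out, with a range of -0.251 to 0.193 over the arrays left out. IRF9 probe a turned to 0.0581 after normexp. The cause of these changes was not tested. Every other IRF probe kept its direction in all 18 alternatives. The blocks, the filters and the methods' t-test leave the fitted change itself unaltered, so the direction could not turn in those.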
